A study of Rattus norvegicus with 50 samples.

Results

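Lung tissue of male Fischer F344 rats that had inhaled 0.15 mg/m3 of nickel subsulfide aerosol for 1 week was compared directly with that of rats that had inhaled 0.08 mg/m3 for the same time. Each concentration had 5 arrays, so the comparison used 10 of the 50 arrays of the series and none of the unexposed controls. The members of the comparison were all 19063 probe sets with exactly 1 gene symbol, which stand for 13438 genes. Nickel subsulfide (Ni3S2) dissolves slowly in the lung and is a carcinogen of the rat lung when inhaled for long. The concentrations of 0.15 and 0.08 mg/m3 correspond to about 0.11 and 0.06 mg of nickel per m3, in that order, and exposure lasted 6 hours a day on 5 days. The rats were 7 to 8 weeks old when they were received. Of the 13 rats of a group, 8 were set aside for expression and lung nickel burden, and the 5 RNA samples of best quality were put on arrays, 1 rat per array, so the groups hold the better-preserved RNA and not every animal. The rest of the series, which is used below only for orientation, held 0.60, 0.04 and 0 mg/m3 at 1 week and the same 5 concentrations after 4 weeks (20 exposure days), with 5 arrays each. RNA came from distal airway and alveolar tissue of the right caudal lobe, and values are log2 intensities, and a log2 difference is the logarithm of a fold change.

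The arrays carried the defining genes of distal lung at high level in both groups. The surfactant protein gene Sftpc of alveolar type 2 cells averaged 13.47 ± 0.02 at 0.15 mg/m3 and 13.46 ± 0.05 at 0.08 mg/m3 (SD, n = 5 each, as for all means below). The club cell secretoglobin Scgb1a1 averaged 13.59 ± 0.02 at 0.15 mg/m3 and 13.63 ± 0.05 at 0.08 mg/m3, and the alveolar type 1 gene Ager averaged 11.34 ± 0.17 at 0.15 mg/m3 and 11.53 ± 0.25 at 0.08 mg/m3. Scgb1a1 and Sftpc lay close to the top of the scale, whose highest value in these arrays was 13.7. Genes of heart muscle, which sheathes the pulmonary veins of rodents, were present too, with Myl7 at 10.22 ± 0.49 at 0.15 mg/m3 and 10.76 ± 0.42 at 0.08 mg/m3.

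Inhaled nickel particles are taken up by macrophages and airway cells, release nickel ions, and set off inflammation, in which epithelium and macrophages secrete chemokines, acute-phase proteins and matrix regulators. Damaged alveolar epithelium is replaced by division of alveolar type 2 cells, and macrophages can divide in the lung as well. Division follows a fixed programme: genes of nucleotide supply and DNA replication are transcribed at the G1/S boundary by E2F factors, and genes of the mitotic spindle and its checkpoints later, in G2, under the DREAM and B-MYB to FOXM1 complexes, which act through short promoter elements.

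The called genes with the largest rises at 0.15 mg/m3 were the secreted defence genes Retnla (2.69 ± 0.47 on the log2 scale, 6.44-fold, ± standard error, n = 5 and 5 arrays) and Saa3 (2.32 ± 0.41, 4.99-fold). Of genes of dividing cells, 19 of 37 of mitosis and 11 of 30 of DNA replication were called higher and 0 lower, beside 2.81% of all genes called higher and 3.97% lower. The stress cytokine Gdf15 fell (-1.65 ± 0.28), as did the P450 Cyp2s1 (-1.04 ± 0.20) and the muscle filament Des (-1.04 ± 0.19). Replicate 1 of 0.15 mg/m3 was the lowest of its group in both Retnla and Saa3, and the calls depended on which arrays were kept.

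The arrays of 0.08 mg/m3 did not form a tight group. The median SD over all probe sets was 0.130 at 0.15 mg/m3, against 0.241 at 0.08 mg/m3. A position was computed for each array on the line that runs from the mean of the 25 arrays of 4 weeks (0) to the mean of the 10 arrays of 0 and 0.04 mg/m3 at 1 week (1). The 0.15 mg/m3 arrays lay at 0.21, 0.18, 0.17, 0.34 and 0.22, and the 0.08 mg/m3 arrays at 0.97, 0.69, 0.25, 0.43 and 0.57, in replicate order. Replicate 1 of 0.08 mg/m3 thus lay among the unexposed arrays of 1 week (0.75 to 1.09) and those of 0.04 mg/m3 (0.95 to 1.19). Replicate 3 lay with the 0.15 mg/m3 arrays and with those of 0.60 mg/m3 (0.26 to 0.34), and the others lay between. The unexposed arrays of 4 weeks lay at -0.06 to 0.02, so the line also separates unexposed rats of 1 week from those of 4 weeks. Group means were 0.225 ± 0.069 at 0.15 mg/m3 and 0.580 ± 0.270 at 0.08 mg/m3 (exact two-sided permutation p = 0.0159, adjusted p = 0.0476 over 3 measures). The line position was chosen as a measure after values were seen, and the adjustment does not account for that choice. On a second axis, the main direction of spread within the 0 and 0.04 mg/m3 arrays, the means were -3.40 ± 9.28 at 0.15 mg/m3 and 23.3 ± 22.0 at 0.08 mg/m3 (exact p = 0.0476, adjusted p = 0.0714). The array medians, the third measure, were 6.36 ± 0.02 at 0.15 mg/m3 and 6.35 ± 0.02 at 0.08 mg/m3 (exact p = 0.238, adjusted p = 0.238). The smallest p that 5 against 5 arrays allow is 0.00794. Across probe sets, which are not independent replicates, the difference between the concentrations correlated with the line's direction at r = -0.846 and with the spread axis at r = -0.578. A graded effect of concentration and the spread of the 1-week arrays along this line cannot be told apart by design, so values are also given below with the line position as a covariate.

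**Figure D1:**
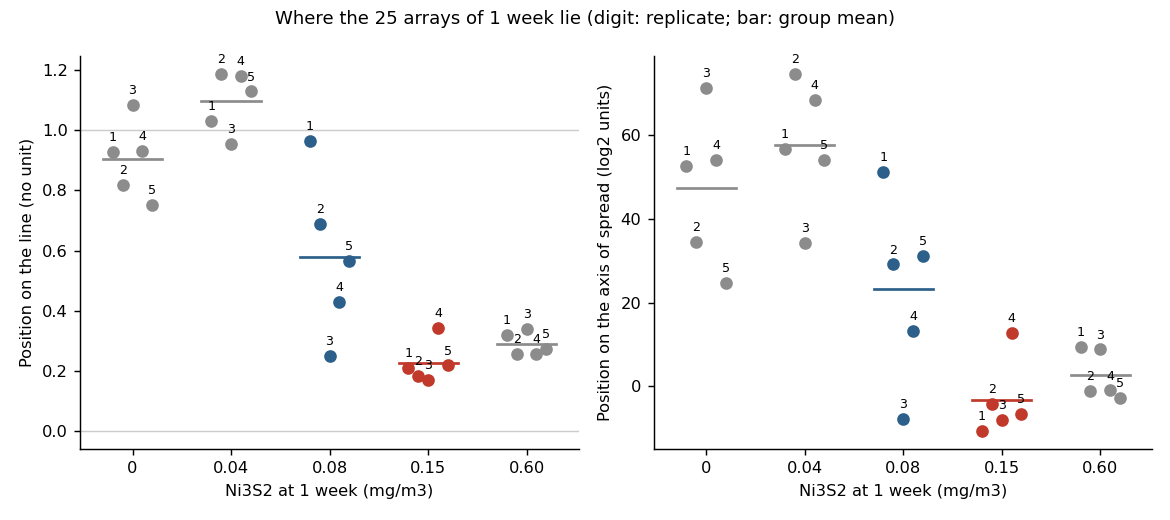
Positions of the 25 arrays of 1 week on the line between the 4-week arrays (0) and the 0 and 0.04 mg/m3 arrays of 1 week (1), left, and on the axis of spread within those 10 arrays, right, by concentration in mg/m3; each point is an array with its replicate number and each bar a group mean. The 5 arrays of 0.15 mg/m3 lie between 0.17 and 0.34 on the line, whereas the 5 arrays of 0.08 mg/m3 run from 0.25 to 0.97.

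Hars1 and Ap2b1 divided the 0.08 mg/m3 arrays into replicates 1 and 2 and replicates 3 to 5, a split that not every gene followed. Hars1, the histidyl-tRNA synthetase, had 7.60, 7.59, 7.53, 7.57 and 7.71 in the 0.15 mg/m3 arrays and 4.69, 5.35, 7.36, 7.30 and 7.48 in the 0.08 mg/m3 arrays. Ap2b1, a clathrin adaptor subunit, had 8.52, 8.59, 8.23, 8.31 and 8.16 at 0.15 mg/m3 and 6.29, 6.19, 8.78, 8.42 and 8.56 at 0.08 mg/m3. Replicates 1 and 2 of 0.08 mg/m3 stood near the unexposed arrays of 1 week (Hars1 4.89 ± 0.11, Ap2b1 6.51 ± 0.20), and replicates 3 to 5 near those of 0.15 mg/m3. The unexposed arrays of 4 weeks were high too, at 7.26 to 7.85 in Hars1 and 7.80 to 8.31 in Ap2b1. A high level of these genes is thus not particular to exposed rats. These 2 genes were among the 6 with the largest SD at 0.08 mg/m3, with Ucp1, the uncoupling protein of brown fat (6.40, 6.03, 4.76, 9.22 and 5.68 at 0.15 mg/m3, 11.19, 11.35, 6.03, 7.12 and 10.17 at 0.08 mg/m3), Glycam1 of high endothelial venules, the lens galectin-related Grifin and the keratin Krt17. Genes chosen by that SD differ among the 0.08 mg/m3 arrays by their choice, and in Ucp1 replicate 5 lay with replicates 1 and 2. None of the 6 passed the test between the concentrations (adjusted p of 0.112 for Hars1, 0.0985 for Ucp1, 0.141 for Grifin, 0.299 for Ap2b1, 0.101 for Krt17 and 0.844 for Glycam1).

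Of 19063 probe sets, 1124 (5.9%) were called at an adjusted p under 0.05, 485 higher and 639 lower at 0.15 mg/m3. As genes these were 911 of 13438 (6.78%), 377 higher (2.81%) and 534 lower (3.97%). Their adjusted p values lay on a plateau between 0.0495 and 0.04995, so that the calls depend on a threshold that many genes pass or miss together. Without adjustment 5500 genes (40.9%) had p under 0.05, and in 1533 genes (11.4%), 769 higher and 764 lower, the 5 arrays of one concentration all lay on one side of the 5 of the other. Leaving out any 1 of 8 arrays left 0 probe sets called, while 665 were called without replicate 1 of 0.15 mg/m3 and 6424 without replicate 3 of 0.08 mg/m3. Counted as genes, these were 529 (351 higher and 178 lower) and 5118 (2334 higher and 2784 lower) of 13438. In each of the 10 omissions all 911 genes, which were picked with the same arrays, kept their sign and an unadjusted limma p under 0.05. Without replicates 1 and 2 of 0.08 mg/m3 together 0 probe sets were called (lowest adjusted p = 0.0933; 4325 with unadjusted p under 0.05), and again the 911 genes kept their sign and an unadjusted limma p under 0.05. With the line position as a covariate 0 probe sets were called (lowest adjusted p = 0.48; 1695 with unadjusted p under 0.05), and 339 of the 911 genes kept an unadjusted p under 0.05, with 0 changes of sign. Below, rose and fell are used only of called genes, whose adjusted p by limma lies on that plateau, and differences are log2 values of 0.15 minus 0.08 mg/m3 with the standard error of limma.

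Among called genes the largest rise was in Retnla, which encodes resistin-like alpha, a secreted protein that macrophages and epithelium of mouse lung make under type 2 cytokines. It had 10.36, 13.10, 12.96, 12.85 and 12.89 in the 0.15 mg/m3 arrays and 9.40, 9.14, 10.31, 10.03 and 9.85 in the 0.08 mg/m3 arrays. The groups did not overlap, but replicate 1 of 0.15 mg/m3 was lower than the other 4 and lay next to the highest 0.08 mg/m3 array. The rise was 2.69 ± 0.47 (6.44-fold), 2.21 with the line position as a covariate and 2.37 without replicates 1 and 2 of 0.08 mg/m3. Across the 1-week series Retnla averaged 8.36 ± 0.17 at 0, 8.96 ± 0.20 at 0.04, 9.75 ± 0.47 at 0.08, 12.43 ± 1.16 at 0.15 and 13.03 ± 0.09 at 0.60 mg/m3, so that 4 of the 5 arrays of 0.15 mg/m3 stood near the level of 0.60 mg/m3. Saa3, an acute-phase apolipoprotein made outside the liver, had 5.59, 7.65, 8.23, 7.26 and 7.48 at 0.15 mg/m3 and 4.25, 4.63, 5.30, 5.20 and 5.24 at 0.08 mg/m3, a rise of 2.32 ± 0.41 (4.99-fold), again with replicate 1 the lowest of the 0.15 mg/m3 arrays. Spp1, which encodes osteopontin, an adhesive cytokine of macrophages and injured epithelium, had 5.57, 7.46, 7.77, 7.11 and 7.07 at 0.15 mg/m3 and 4.03, 4.06, 5.55, 5.87 and 5.09 at 0.08 mg/m3. Its rise was 2.07 ± 0.45, and replicate 1 of 0.15 mg/m3 lay among replicates 3 to 5 of 0.08 mg/m3.

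Timp1, an inhibitor of matrix metalloproteinases, had 9.32, 10.38, 10.80, 10.13 and 10.38 in the 0.15 mg/m3 arrays and 8.35, 8.54, 9.0, 8.94 and 9.24 in the 0.08 mg/m3 arrays, without overlap, and rose by 1.39 ± 0.25. Il1r2, the decoy receptor for interleukin 1, had 5.41, 6.13, 6.61, 6.18 and 6.50 at 0.15 mg/m3 and 4.94, 5.11, 4.78, 5.0 and 5.40 at 0.08 mg/m3 and rose by 1.12 ± 0.20. With the line position as a covariate Timp1 differed by 1.0 and Il1r2 by 1.17. Iapp, which encodes amylin, a peptide hormone of pancreatic islets, had 3.83, 4.91, 4.89, 5.26 and 4.82 at 0.15 mg/m3 and 3.50, 3.50, 3.58, 3.66 and 3.76 at 0.08 mg/m3, a rise of 1.14 ± 0.21. At 1 week Iapp averaged 3.32 ± 0.08 at 0 and 5.37 ± 0.48 at 0.60 mg/m3. C4bpa, a complement inhibitor, rose by 1.11 ± 0.26, with 9.12, 9.33, 9.51, 9.41 and 9.61 at 0.15 mg/m3 and 7.28, 8.04, 8.96, 8.67 and 8.47 at 0.08 mg/m3, but differed by 0.32 with the covariate. Replicates 1 and 2 of 0.08 mg/m3 were the lowest of the 10 arrays in it. The other 6 of the 12 largest rises without overlap were genes of dividing cells, described below: Pole2, Dscc1, E2f8, Shcbp1, Mcm4 and Rrm1.

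Atp6v0a4 and Tmem213 were high in 4 of the 5 arrays of 0.15 mg/m3. Atp6v0a4, a membrane subunit of the vacuolar proton pump found in acid-secreting cells of the kidney, had 3.62, 6.24, 6.91, 6.23 and 6.24 at 0.15 mg/m3 and 3.91, 3.71, 3.92, 3.45 and 4.01 at 0.08 mg/m3. Tmem213, a small membrane protein gene, had 3.70, 5.50, 6.53, 6.16 and 6.22 at 0.15 mg/m3 and 3.97, 3.66, 3.61, 3.51 and 3.86 at 0.08 mg/m3. In both genes replicate 1 of 0.15 mg/m3 was inside the range of the 0.08 mg/m3 arrays and the other 4 lay above all of them. The rises were 2.04 ± 0.48 and 1.90 ± 0.43, and 2.09 and 2.13 with the line position as a covariate, so that these 2 differences did not shrink. Both averaged close to the 0.08 mg/m3 level at 0 mg/m3 (3.52 ± 0.17 and 3.72 ± 0.18) and were as high at 0.60 mg/m3 as in the 4 high arrays (6.85 ± 0.81 and 6.79 ± 0.54). Without replicate 1 of 0.15 mg/m3 the differences were 2.60 and 2.38.

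**Figure D2:**
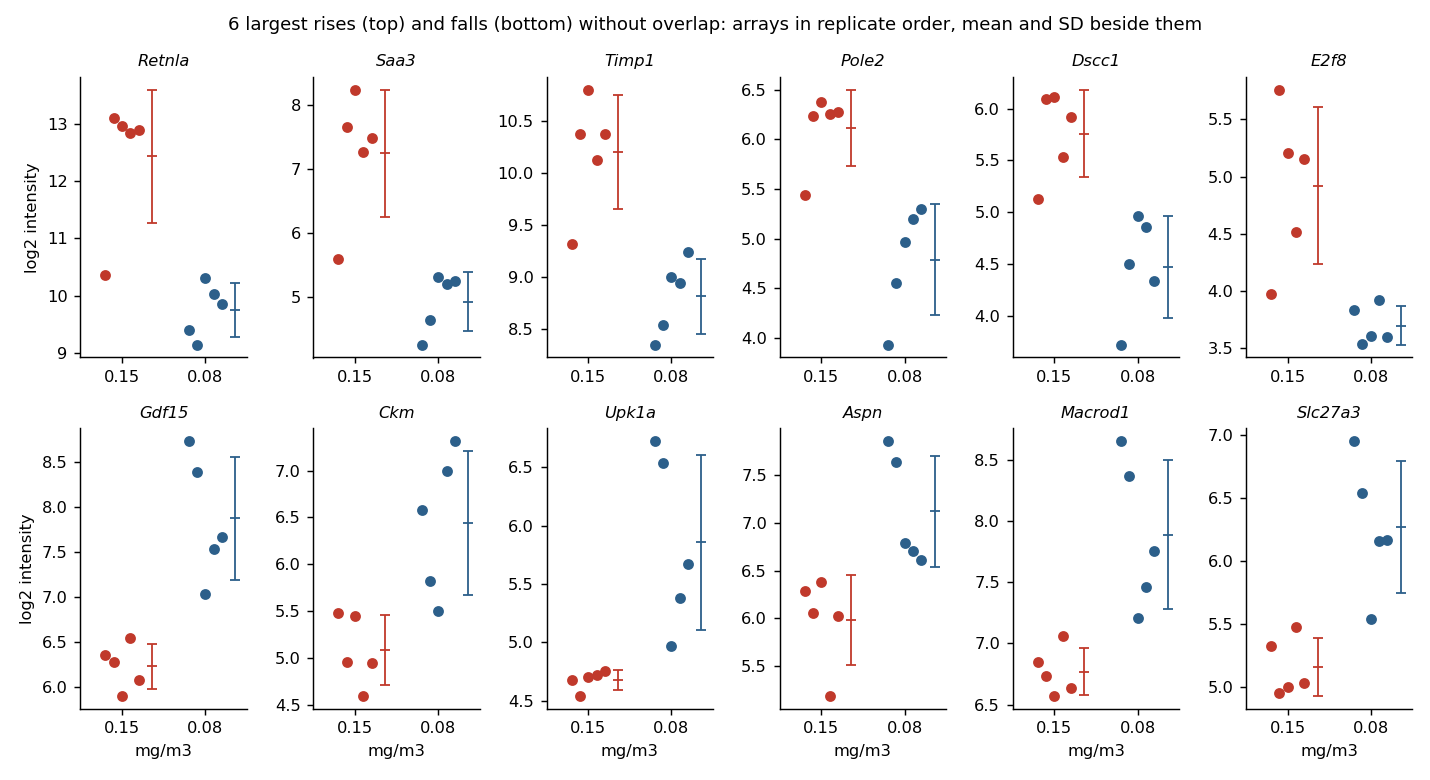
Log2 intensity of the 6 called genes with the largest rises (top) and the 6 with the largest falls (bottom) whose groups do not overlap, in the 5 arrays of 0.15 mg/m3 (left) and the 5 of 0.08 mg/m3 (right) in replicate order, with mean and SD beside the points. Replicate 1 of 0.15 mg/m3 is the lowest of its group in the 6 rises, and in Gdf15, Upk1a, Aspn, Macrod1 and Slc27a3 the highest 0.08 mg/m3 arrays are replicates 1 and 2.

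Among called genes the largest fall was in Gdf15, which encodes a cytokine released by stressed cells and is a target of p53. It had 6.36, 6.28, 5.90, 6.54 and 6.08 in the 0.15 mg/m3 arrays and 8.74, 8.39, 7.04, 7.54 and 7.67 in the 0.08 mg/m3 arrays, without overlap, and fell by 1.65 ± 0.28 (3.13-fold). Replicates 1 and 2 of 0.08 mg/m3 stood near the unexposed mean of 1 week (8.62 ± 0.33), and the difference was -0.77 with the line position as a covariate (unadjusted p = 0.000239). Slc27a3, an acyl-CoA synthetase, had 5.33, 4.96, 5.0, 5.48 and 5.03 at 0.15 mg/m3 and 6.95, 6.54, 5.54, 6.16 and 6.17 at 0.08 mg/m3 (-1.11 ± 0.22, and -0.42 with the covariate). Macrod1, which removes ADP-ribose from proteins, had 6.84, 6.74, 6.57, 7.06 and 6.63 at 0.15 mg/m3 and 8.65, 8.37, 7.21, 7.46 and 7.75 at 0.08 mg/m3 (-1.12 ± 0.24, and -0.34 with the covariate). Upk1a, a tetraspanin of urothelial plaques, had 4.67, 4.54, 4.70, 4.72 and 4.76 at 0.15 mg/m3 and 6.73, 6.54, 4.97, 5.38 and 5.68 at 0.08 mg/m3 (-1.18 ± 0.29, and -0.28 with the covariate). In these 3 genes replicate 3 of 0.08 mg/m3, the array nearest the 0.15 mg/m3 arrays on the line, was the lowest of its group. Klf15 (-1.0 ± 0.24) and Per1 (-1.0 ± 0.21), transcription regulators that glucocorticoids induce, also fell, as did S100a1, a calcium-binding protein of muscle (-1.0 ± 0.22), and Jag2, a Notch ligand (-0.92 ± 0.20). Their differences with the covariate were -0.31, -0.37, -0.36 and -0.27. Aspn, a small proteoglycan of the matrix, had 6.28, 6.05, 6.38, 5.19 and 6.03 at 0.15 mg/m3 and 7.85, 7.63, 6.78, 6.70 and 6.61 at 0.08 mg/m3 and fell by 1.13 ± 0.28, with the lowest value in replicate 4 of 0.15 mg/m3.

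Genes of G2 and mitosis held the largest share of calls of any list counted here, and all of the calls were higher at 0.15 mg/m3. Of 37 measured members 19 were called higher and 0 lower (51.4% called, beside 2.81% of all genes higher and 3.97% lower), with a median difference of 0.93 beside -0.02 over all genes. Melk, a kinase of dividing cells, had 5.36, 7.46, 7.27, 7.13 and 7.20 in the 0.15 mg/m3 arrays and 4.02, 4.53, 5.49, 5.15 and 5.81 in the 0.08 mg/m3 arrays, a rise of 1.88 ± 0.42. Spc25, a subunit of the kinetochore's NDC80 complex, had 5.47, 7.51, 7.50, 7.22 and 7.18 at 0.15 mg/m3 and 4.54, 4.71, 5.76, 5.34 and 5.82 at 0.08 mg/m3 (1.74 ± 0.39). Ccna2, cyclin A2, had 5.29, 7.22, 6.78, 6.76 and 6.85 at 0.15 mg/m3 and 3.83, 4.53, 5.39, 5.22 and 5.28 at 0.08 mg/m3 (1.73 ± 0.37). In all 3 genes replicate 1 of 0.15 mg/m3 was the lowest of its group and lay within the 0.08 mg/m3 range, and the other 4 arrays lay above every 0.08 mg/m3 array. Kif20a, a kinesin of the dividing midzone, rose by 1.54 ± 0.32, and the cyclins Ccnb1 and Ccnb2 rose by 1.45 ± 0.31 and 1.27 ± 0.30. The checkpoint kinase Bub1b (1.30 ± 0.28), the cytokinesis activators Ect2 (1.29 ± 0.32) and Racgap1 (1.14 ± 0.27), and the kinetochore subunit Nuf2 (1.36 ± 0.30) rose as well. The widely used markers Mki67 and Top2a were not called, at 0.32 ± 0.25 (adjusted p = 0.366) and 0.93 ± 0.29 (adjusted p = 0.0603). Aurkb had -0.11 ± 0.09 (adjusted p = 0.39).

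The mean of the mitosis list in an array, set to average 0 over the 10 arrays, was -0.42, 0.96, 0.79, 0.47 and 0.58 at 0.15 mg/m3 and -0.77, -0.60, -0.28, -0.43 and -0.31 at 0.08 mg/m3. Replicate 1 of 0.15 mg/m3 therefore lay with the 0.08 mg/m3 arrays, and 1 of the 37 members separated the groups completely, beside 11.4% of all genes. Without that array 27 members were called higher and the median was 1.12, without replicate 3 of 0.08 mg/m3 29 were, and in the other 8 omissions 0 were called. Of all 13438 genes 351 and 2334 were called higher without those arrays, in that order. Between 30 and 33 members of the mitosis list were higher at an unadjusted p under 0.05 in the 10 omissions. With the line position as a covariate 14 were, and the median was 0.73. Of all 13438 genes 2023 to 3192 were higher by that count in the omissions and 752 with the covariate. Across 1-week concentrations the list averaged -1.11 at 0, -0.98 at 0.04, -0.48 at 0.08, 0.48 at 0.15 and 0.86 at 0.60 mg/m3 on the same scale. In RNA of whole tissue, more cells of a kind and more RNA per cell cannot be told apart.

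The called genes of G1/S and DNA replication rose as well, and the list had a smaller median than the mitosis list. Of 30 measured members 11 were called higher and 0 lower, beside 2.81% of all genes higher and 3.97% lower, with a median of 0.50. The groups did not overlap in 6 members, beside 11.4% of all genes in either direction. Rrm2, the small subunit of ribonucleotide reductase, had 7.94, 9.57, 9.47, 9.25 and 9.44 at 0.15 mg/m3 and 6.63, 7.09, 8.04, 7.82 and 8.08 at 0.08 mg/m3 and rose by 1.60 ± 0.35. The large subunit Rrm1 had 7.10, 7.81, 7.87, 7.65 and 7.77 at 0.15 mg/m3 and 5.60, 6.36, 6.99, 6.95 and 7.06 at 0.08 mg/m3 and rose by 1.05 ± 0.27. Mcm4 (1.06 ± 0.23) and Mcm6 (0.85 ± 0.20), subunits of the replicative helicase, and Tyms, which makes thymidylate (1.05 ± 0.24), rose. Uhrf1, which carries DNA methylation through replication, rose by 1.07 ± 0.22. Other subunits of that helicase were not called, with Mcm2 at 0.07 ± 0.16, Mcm7 at 0.21 ± 0.10 and Mcm3 at 0.32 ± 0.16. Outside the list, Pole2, a subunit of DNA polymerase epsilon, had 5.44, 6.23, 6.37, 6.25 and 6.28 at 0.15 mg/m3 and 3.93, 4.56, 4.96, 5.20 and 5.30 at 0.08 mg/m3 (1.33 ± 0.26). Dscc1, which loads clamps for sister chromatid cohesion, rose by 1.29 ± 0.25, and E2f8, an atypical E2F repressor that is itself an E2F target, rose by 1.22 ± 0.27. E2f8 and Shcbp1, a midbody protein gene (1.15 ± 0.22), kept 1.16 and 1.0 with the line position as a covariate, whereas Pole2 had 0.78, Mcm4 0.39 and Rrm1 0.35. Without replicate 1 of 0.15 mg/m3 17 list members were called, without replicate 3 of 0.08 mg/m3 15, and 0 in the other 8 omissions. Of all 13438 genes 529 and 5118 were called without those arrays, in that order.

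**Figure D3:**
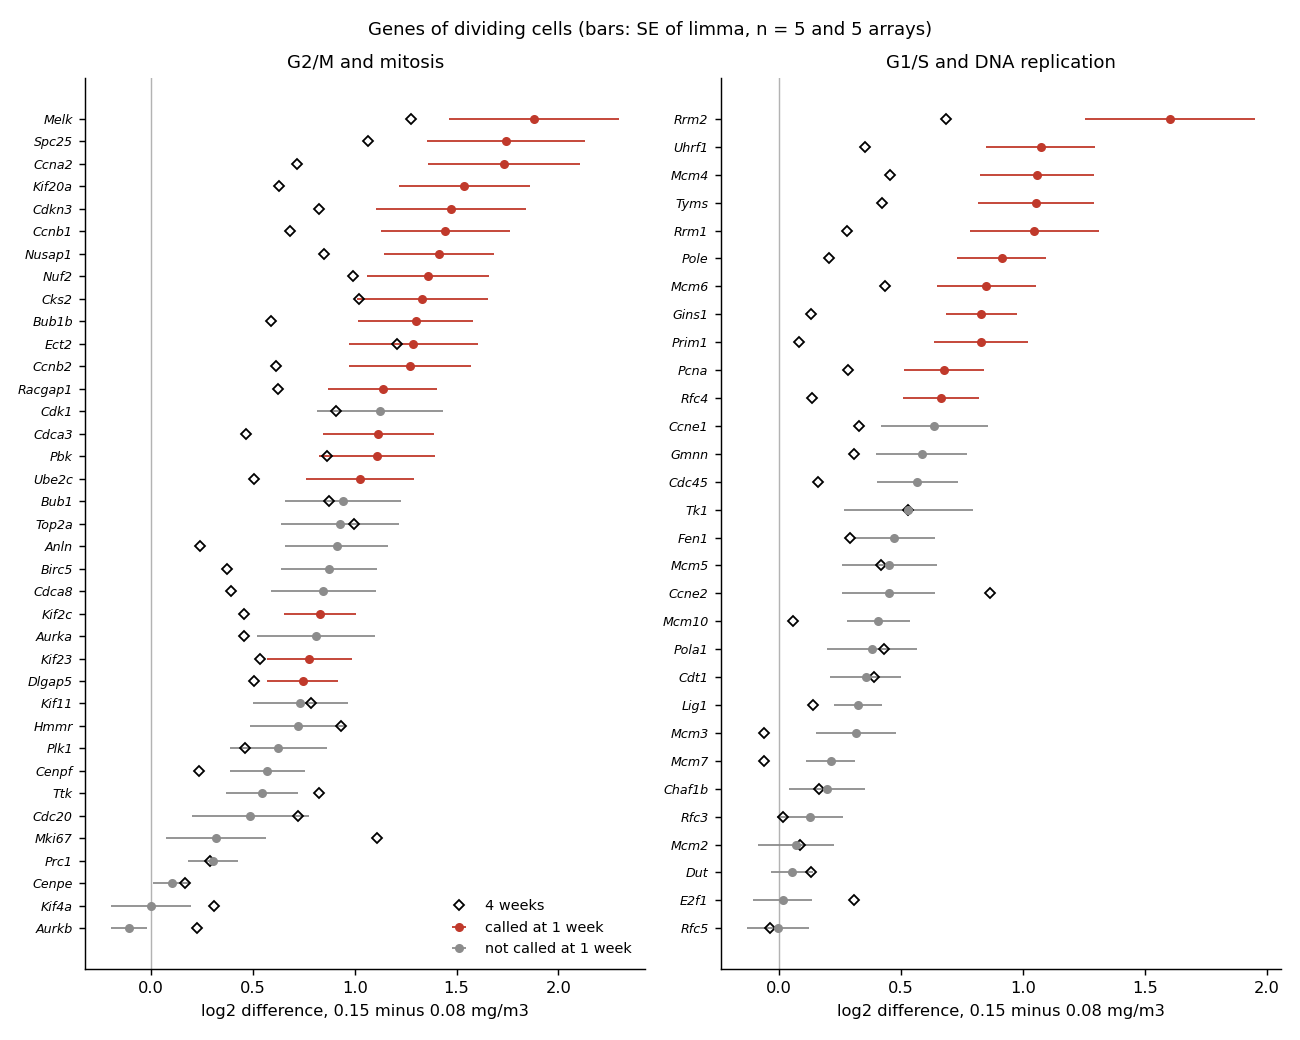
Log2 difference of 0.15 minus 0.08 mg/m3 at 1 week for each measured gene of the mitosis list (left) and the DNA replication list (right), with the standard error of limma (n = 5 and 5 arrays), and the same difference at 4 weeks as open diamonds. Of the 37 mitosis genes 19 are called at 1 week, all of them higher, and Melk has the largest difference at 1.88.

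Since the called members all moved one way, their promoters were read for the elements named above: the cell cycle homology region, with the letters TTTGAA or TTTAAA, and the CCAAT box, each on both strands, in the 250 bases before the gene's start in RefSeq (build GRCr8). Promoters of 4 of the called members with the largest rises are shown 5′ to 3′ on the gene's strand, with the matched letters in capitals (TTCAAA and ATTGG are matches on the opposite strand), to set a member without a match beside 3 with both elements. Their positions are chr5:63335901-63336150, plus strand for Melk, chr3:74396719-74396968, minus strand for Spc25, chr15:22502136-22502385, plus strand for Cdkn3, a phosphatase of cyclin-dependent kinases, and chr2:33655226-33655475, minus strand for Ccnb1.
Melk: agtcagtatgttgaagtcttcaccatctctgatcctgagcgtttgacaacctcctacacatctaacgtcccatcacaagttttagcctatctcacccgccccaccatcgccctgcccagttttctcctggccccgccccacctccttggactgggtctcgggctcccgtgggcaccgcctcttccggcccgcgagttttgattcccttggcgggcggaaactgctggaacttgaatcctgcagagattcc
Spc25: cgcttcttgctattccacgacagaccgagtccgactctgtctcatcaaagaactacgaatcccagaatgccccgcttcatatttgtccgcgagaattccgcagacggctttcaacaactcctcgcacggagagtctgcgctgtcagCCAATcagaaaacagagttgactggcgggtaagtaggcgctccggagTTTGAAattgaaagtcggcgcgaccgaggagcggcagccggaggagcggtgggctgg
Cdkn3: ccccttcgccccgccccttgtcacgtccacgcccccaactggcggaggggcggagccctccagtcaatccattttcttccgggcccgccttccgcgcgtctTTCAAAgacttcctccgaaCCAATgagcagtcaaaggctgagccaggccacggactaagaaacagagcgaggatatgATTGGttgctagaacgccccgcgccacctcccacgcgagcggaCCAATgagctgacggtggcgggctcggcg
Ccnb1: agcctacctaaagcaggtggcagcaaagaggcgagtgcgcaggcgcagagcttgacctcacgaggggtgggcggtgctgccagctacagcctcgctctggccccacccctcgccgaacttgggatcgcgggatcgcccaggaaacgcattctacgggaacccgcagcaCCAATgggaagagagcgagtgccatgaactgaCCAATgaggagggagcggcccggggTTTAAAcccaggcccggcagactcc

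Of the 37 measured mitosis genes 32 had a promoter in the table, and 26 of these (81.2%) held TTTGAA or TTTAAA, beside 17.8% of the 11057 promoters of all measured genes and 25.3% of all 27457 promoters. The CCAAT box was in 25 (78.1%), beside 35.1% of measured genes, and both elements were in 22 (68.8%), beside 6.32%. Of 26 matched genes of the G1/S list 4 (15.4%) held TTTGAA or TTTAAA, 14 (53.8%) held CCAAT and 0 held both. TTTGAA or TTTAAA was thus in most of the mitosis promoters read and in few of the G1/S promoters, while CCAAT was in more than the all-gene share of both. Among those shown, Ccnb1 had CCAAT boxes starting 82 and 50 bases before its start and TTTAAA 25 bases before it, Spc25 had CCAAT 104 and TTTGAA 57 bases before it, and Melk, with the largest difference of the list, had no match in this window. A match describes letters and not binding, and the members were chosen as known cell cycle genes.

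Genes of secreted defence gave the 2 largest rises, but few of their list were called. Of 15 measured acute-phase and secreted defence genes 3 were called higher (Retnla, Saa3 and Spp1) and 0 lower (20%, beside 6.78% of all genes), with a median of 0.20. The list mean ranged from -0.21 to 0.55 at 0.15 mg/m3, where replicate 1 was the lowest, and from -0.46 to -0.17 at 0.08 mg/m3. Lcn2, a siderophore-binding protein, had 0.78 ± 0.22 (adjusted p = 0.0532). Of 26 chemokine genes 2 were called higher and 0 lower (7.69%, near the 6.78% of all genes): the neutrophil attractants Cxcl2 (4.97, 5.43, 6.24, 5.47 and 5.64 at 0.15 mg/m3 and 4.62, 4.52, 5.0, 4.80 and 4.85 at 0.08 mg/m3, a rise of 0.79 ± 0.19) and Cxcl1 (0.53 ± 0.14). The monocyte attractants Ccl7 and Ccl2 separated the groups without overlap but missed the threshold, with 0.97 ± 0.29 (adjusted p = 0.0549) and 0.64 ± 0.18 (adjusted p = 0.0514). Of 12 neutrophil genes Il1r2 and the calprotectin subunit S100a8 (0.76 ± 0.20) were called higher and 0 lower (16.7%, beside 6.78% of all genes). The other subunit S100a9 had 0.39 ± 0.16 (adjusted p = 0.104). The neutrophil list mean ranged from 0.03 to 0.35 at 0.15 mg/m3 and from -0.32 to 0.05 at 0.08 mg/m3, and replicate 1 of 0.15 mg/m3 was not the lowest in it.

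Ptgs2, the inducible cyclooxygenase that starts prostaglandin synthesis, had 4.97, 6.41, 6.17, 5.58 and 5.50 in the 0.15 mg/m3 arrays and 4.32, 4.44, 5.13, 4.31 and 3.93 in the 0.08 mg/m3 arrays and rose by 1.30 ± 0.27. In the list of TNF, interleukin 1 and NF-kB genes it was the 1 member called higher of 22, and 3 were lower: the NF-kB subunit Nfkb2 (-0.73 ± 0.18), the macrophage growth factor Csf1 (-0.60 ± 0.15) and Tgfb1 (-0.58 ± 0.14). The share called in that list was 18.2%, beside 6.78% of all genes. Ptges, which makes prostaglandin E2, was not called (0.20 ± 0.25, adjusted p = 0.587). In the list of 15 genes of prostaglandin and leukotriene synthesis 1 was called higher and 0 lower, with a median of -0.275. That is 6.67%, near the share of all genes. Complement had 1 of 16 called higher, the protease factor I gene Cfi (1.13 ± 0.28), and 0 lower (6.25%, near the share of all genes). Of 23 interferon-induced genes 1 was called (4.35%, below the share of all genes), the antiviral GTPase Mx2 (0.50 ± 0.13), with a list median of 0.19. The larger differences of Ifit3 (1.17 ± 0.32, adjusted p = 0.0515) and Rsad2 (0.75 ± 0.21, adjusted p = 0.0525) missed the threshold, and replicate 3 of 0.08 mg/m3 lay within the 0.15 mg/m3 range in both. Of 34 matrix proteases, inhibitors and collagens Timp1 was the 1 called higher and the surface protease Adam8 the 1 called lower (-0.48 ± 0.11). That is 5.88% called, near the share of all genes. Mmp12, the macrophage elastase, had 7.14, 7.87, 8.13, 7.72 and 7.63 at 0.15 mg/m3 and 5.32, 5.86, 7.24, 7.72 and 7.26 at 0.08 mg/m3 (1.02 ± 0.41, adjusted p = 0.101), with replicates 1 and 2 of 0.08 mg/m3 low and the rest overlapping.

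Few genes from the lists of airway secretion, ion transport and epithelial cells were called, and RNA of whole tissue does not show which cells differed. Muc5b, a gel-forming mucin, had 11.28, 12.51, 12.60, 12.51 and 12.29 in the 0.15 mg/m3 arrays and 11.08, 10.47, 11.35, 11.31 and 11.44 in the 0.08 mg/m3 arrays, a rise of 1.11 ± 0.26. It was the 1 called of 11 goblet cell genes (9.09%, beside 6.78% of all genes, list median 0.32). Its partner Agr2, which folds mucins, had 0.59 ± 0.17 (adjusted p = 0.0538), and the other gel-forming mucin Muc5ac had 0.16 ± 0.13 (adjusted p = 0.368). Slc26a4, the anion exchanger pendrin, had 6.24, 7.18, 7.64, 6.94 and 7.38 at 0.15 mg/m3 and 5.64, 5.01, 6.60, 6.36 and 5.68 at 0.08 mg/m3, a rise of 1.22 ± 0.31. It was the 1 called of 15 genes of airway ion transport (6.67%, near the share of all genes). With the line position as a covariate Muc5b had 0.90 and Slc26a4 0.60. Areg, amphiregulin, a ligand of the EGF receptor, rose by 1.04 ± 0.22. Of 14 alveolar type 2 genes Fabp5, a fatty acid carrier, was the 1 called (0.47 ± 0.12, list median 0.0013), which is 7.14%, near the share of all genes. In the lists of 11 alveolar type 1 genes, 9 ciliated cell genes and 8 basal cell genes 0 were called. The unadjusted counts in those 3 lists were 3 higher and 1 lower, 2 higher and 1 lower, and 0 higher and 2 lower. Over all 13438 genes they were 2665 higher and 2835 lower.

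Of the enzymes that process foreign compounds a minority fell. Of 25 measured members 5 were called lower (20%, beside 3.97% of all genes) and 0 higher, with a median of -0.15. The groups did not overlap in 5 members, beside 11.4% of all genes in either direction. Without replicate 1 of 0.15 mg/m3 5 members were called lower, without replicate 3 of 0.08 mg/m3 10 lower and 2 higher, and in the other 8 omissions 0 were called. Of all 13438 genes 178 were called lower without the first array, and 2784 lower and 2334 higher without the second. Cyp2s1, a cytochrome P450 of airway epithelium, had 8.38, 8.40, 8.03, 8.67 and 8.17 at 0.15 mg/m3 and 9.89, 9.57, 8.69, 9.23 and 9.48 at 0.08 mg/m3 and fell by 1.04 ± 0.20. Por, the reductase that supplies electrons to the P450 enzymes, had 9.75, 9.57, 9.40, 9.88 and 9.48 at 0.15 mg/m3 and 10.78, 10.49, 9.96, 10.20 and 10.40 at 0.08 mg/m3 (-0.75 ± 0.15), and the glutathione transferases Gstm2 (-0.75 ± 0.17) and Gstp1 (-0.52 ± 0.13) and Cyp4b1 (-0.37 ± 0.10) fell. With the line position as a covariate the differences were -0.45, -0.32, -0.27, -0.18 and -0.23, in that order. Of 9 club cell genes Por and Cyp4b1 were the 2 called (22.2%, beside 6.78% of all genes), and the secretoglobins Scgb1a1 (-0.04 ± 0.07) and Scgb3a1 (-0.06 ± 0.07) were not. Among 1-week concentrations the xenobiotic list mean was -0.12 at 0, -0.08 at 0.04, 0.11 at 0.08, -0.11 at 0.15 and -0.31 at 0.60 mg/m3, so it was highest at 0.08 mg/m3 and did not follow the order of concentration. In the NRF2 list of 20 oxidant response genes, Akr1b8, an aldo-keto reductase (0.44 ± 0.10), and Gclm, of glutathione synthesis (0.40 ± 0.10), rose and Osgin1 fell (-0.84 ± 0.21). That is 15% called, beside 6.78% of all genes. Mt2A, a metallothionein that binds metal ions, had 8.13, 8.55, 9.20, 8.96 and 8.87 at 0.15 mg/m3 and 7.65, 7.61, 7.61, 7.81 and 8.51 at 0.08 mg/m3 and rose by 0.91 ± 0.22. It was the 1 called of 18 genes of metal binding and transport (5.56%, near the share of all genes).

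Part of the contractile genes fell at 0.15 mg/m3. Of 11 smooth muscle genes 4 were called lower and 0 higher (36.4%, beside 3.97% of all genes called lower), with a median of -0.45. Des, the muscle filament desmin, had 8.56, 8.15, 7.96, 8.22 and 8.19 at 0.15 mg/m3 and 9.30, 9.13, 8.60, 9.58 and 9.66 at 0.08 mg/m3, without overlap, and fell by 1.04 ± 0.19. Cnn1, calponin (-0.69 ± 0.17), Actg2, the enteric smooth muscle actin (-0.64 ± 0.14), and Smtn, smoothelin (-0.56 ± 0.15), fell too. The chief contractile genes Acta2 (-0.45 ± 0.13, adjusted p = 0.0515) and Myh11 (0.14 ± 0.29, adjusted p = 0.75) were not called. The list mean ranged from -0.34 to 0.17 at 0.15 mg/m3, where replicate 1 was the highest, and from -0.11 to 0.36 at 0.08 mg/m3, where replicates 4 and 5 were. Without replicate 1 of 0.15 mg/m3 4 members were called lower, without replicate 3 of 0.08 mg/m3 6, and in the other 8 omissions 0 were called. Of all 13438 genes 178 and 2784 were called lower without those arrays, in that order. The smooth muscle median was -0.42 with the line position as a covariate. Ckm, the muscle creatine kinase, had 5.48, 4.95, 5.44, 4.59 and 4.94 at 0.15 mg/m3 and 6.58, 5.82, 5.49, 7.0 and 7.31 at 0.08 mg/m3 and fell by 1.36 ± 0.32, but it was the 1 called of 8 skeletal muscle genes (12.5%, beside 6.78% of all genes). In the heart muscle list 0 of 13 genes were called, with 4 lower at an unadjusted p under 0.05, beside 2835 of all 13438 genes. Of the heart genes the atrial peptide Nppa (-1.48 ± 0.55, adjusted p = 0.0852) and the atrial light chain Myl4 (-1.04 ± 0.32, adjusted p = 0.0574) lay furthest below 0. The heart muscle list mean ranged from -0.92 to 0.37 at 0.15 mg/m3 and from -0.51 to 0.61 at 0.08 mg/m3, and the part of heart and airway wall in these differences was not tested.

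**Figure D4:**
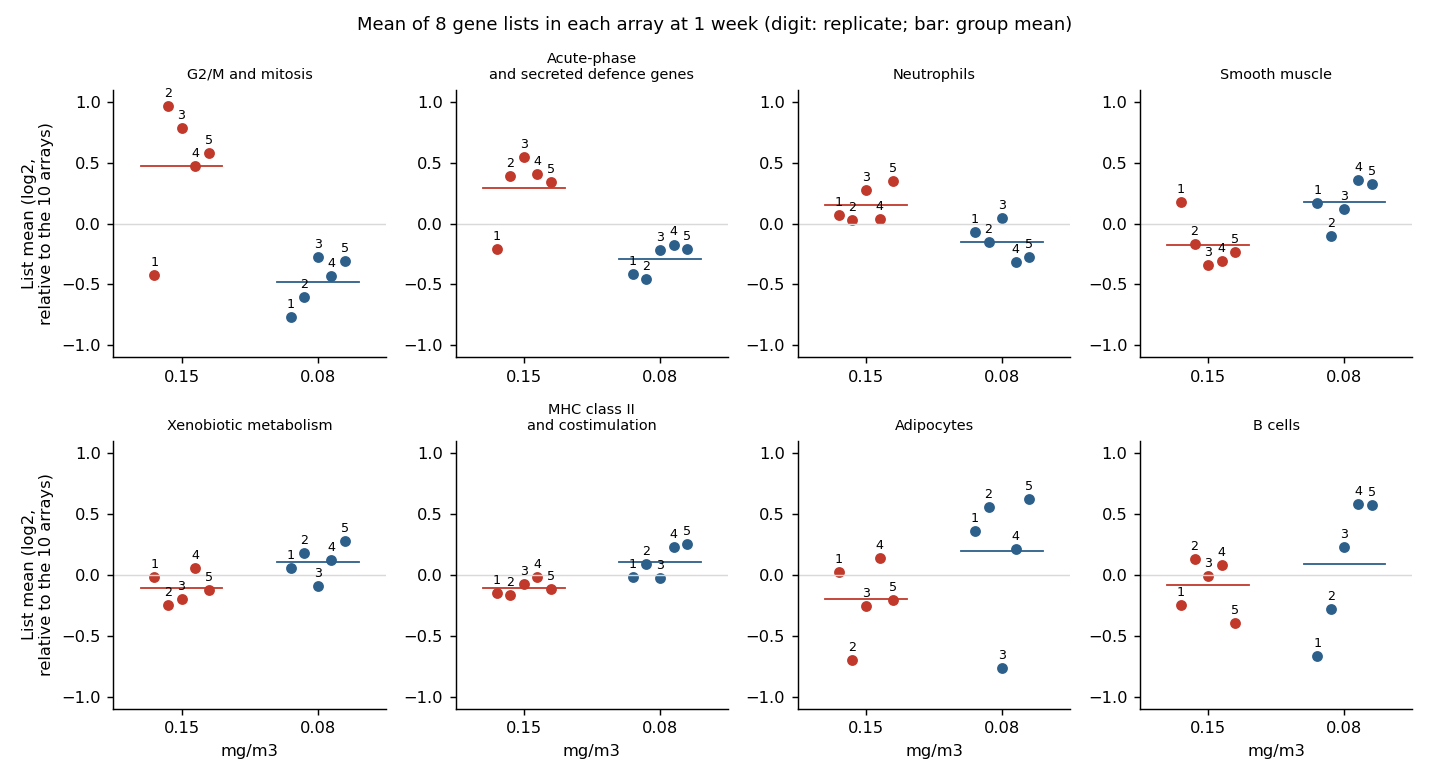
Mean log2 value of 8 gene lists in each array of 0.15 mg/m3 (left) and 0.08 mg/m3 (right) at 1 week, relative to the mean of the 10 arrays, with replicate numbers and group means as bars. Replicate 1 of 0.15 mg/m3 lies with the 0.08 mg/m3 arrays in the mitosis, acute-phase and smooth muscle lists, and the 0.08 mg/m3 arrays spread from -0.76 to 0.62 in the adipocyte list and from -0.67 to 0.58 in the B cell list.

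Lymphocyte and fat genes spread widely among the 0.08 mg/m3 arrays. Of 16 T cell genes Lck, the kinase of the T cell receptor, was called lower (8.24, 8.37, 8.30, 8.52 and 8.08 at 0.15 mg/m3 and 8.78, 8.79, 8.64, 9.21 and 9.13 at 0.08 mg/m3, -0.61 ± 0.13). That is 6.25% of the list, near the 6.78% of all genes called. Ptprcap, a CD45-associated protein of lymphocytes outside the list, had 8.30, 8.41, 8.40, 8.77 and 8.16 at 0.15 mg/m3 and 9.36, 9.44, 8.76, 9.86 and 9.89 at 0.08 mg/m3 and fell by 1.05 ± 0.20. The defining genes Cd3e (-0.06 ± 0.29) and Cd3d (-0.13 ± 0.21) were not called, and of 8 B cell genes 0 were. The B cell list mean was -0.25, 0.13, -0.01, 0.08 and -0.39 at 0.15 mg/m3 and -0.67, -0.28, 0.23, 0.58 and 0.58 at 0.08 mg/m3. Replicates 4 and 5 of 0.08 mg/m3 were thus the highest of the 10 and replicate 1 the lowest, and without replicates 1 and 2 the B cell median was -0.60 in place of -0.22 and the T cell median -0.41 in place of -0.13. Of 10 cytotoxic cell genes the granzyme Gzmm fell (-0.82 ± 0.16) and the receptor Klrg1 rose (0.50 ± 0.11), 20% of the list beside 6.78% of all genes. Of 9 adipocyte genes 0 were called, and the list mean was 0.03, -0.70, -0.25, 0.14 and -0.20 at 0.15 mg/m3 and 0.36, 0.56, -0.76, 0.21 and 0.62 at 0.08 mg/m3. Their median difference was -0.44, and 0.05 with the line position as a covariate. Without the covariate 0 were higher and 3 lower at an unadjusted limma p under 0.05, beside 2665 and 2835 of all 13438 genes. Without replicate 3 of 0.08 mg/m3 6 adipocyte genes were called lower, beside 2784 of all 13438 genes. In the other 9 omissions 0 adipocyte genes were called. Adipoq, the fat hormone, averaged 7.88 ± 0.45 at 0.15 mg/m3 and 7.73 ± 0.81 at 0.08 mg/m3, so RNA of fat was present in both groups, and its part in other differences was not tested.

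Part of the genes of antigen presentation fell at 0.15 mg/m3. Of 11 genes of MHC class II and costimulation 5 were called lower and 0 higher (45.5%, beside 3.97% of all genes called lower), with a median of -0.14. Without replicate 1 of 0.15 mg/m3 2 were called lower, without replicate 3 of 0.08 mg/m3 5, and in the other 8 omissions 0. Of all 13438 genes 178 and 2784 were called lower without those arrays, in that order. RT1-DMb, a chain of the peptide loader, had 9.06, 9.08, 9.13, 9.14 and 9.09 at 0.15 mg/m3 and 10.02, 9.95, 9.31, 9.78 and 9.71 at 0.08 mg/m3, without overlap, and fell by 0.66 ± 0.12. Its partner RT1-DMa (-0.59 ± 0.14), the class II activator Ciita (-0.59 ± 0.13), the class II chain RT1-Db1 (-0.54 ± 0.09) and Cd40 (-0.53 ± 0.12) fell as well, while the invariant chain Cd74 (-0.05 ± 0.08) and RT1-Da (-0.05 ± 0.08) were not called. Immediate early genes, which answer growth and stress signals within minutes, had 5 of 22 lower, namely Dusp2 (-0.72 ± 0.19), Junb (-0.55 ± 0.14), Ier2 (-0.51 ± 0.13), Zfp36 (-0.50 ± 0.12) and Klf2 (-0.44 ± 0.09), and 1 higher, Atf3 (0.50 ± 0.13). That is 27.3% called, beside 6.78% of all genes (2.81% higher and 3.97% lower). The list median was -0.05, and in 8 of the omissions 0 were called. Junb had 6.46, 6.65, 6.58, 6.68 and 6.70 at 0.15 mg/m3 and 7.72, 7.13, 6.84, 7.05 and 7.06 at 0.08 mg/m3, and with the covariate it differed by -0.15, Ier2 by -0.18 and Zfp36 by -0.17. Fosb (-0.09 ± 0.15) and Egr1 (0.39 ± 0.18) were not called. Apoe, a lipid carrier of macrophages, fell by 0.64 ± 0.11, and of 9 alveolar macrophage genes and 11 monocyte genes 0 were called.

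The share called, beside 6.78% of all genes, was 11.8% of cytosolic tRNA synthetases, 10% of proteasome subunits, 6.9% of unfolded protein response genes and 22.2% of cholesterol synthesis genes. Of 31 cytosolic ribosomal protein genes 0 were called by limma. At an unadjusted limma p under 0.05, 3 were higher and 4 lower, beside 2665 and 2835 of all 13438 genes. Of 17 cytosolic tRNA synthetase genes 2 were called higher, Farsb (0.68 ± 0.18) and Tars1 (0.67 ± 0.16), and 0 lower, with a median of 0.44. Tars1, which charges threonine tRNA, had 8.34, 8.58, 8.59, 8.48 and 8.45 at 0.15 mg/m3 and 7.21, 7.68, 8.14, 8.07 and 7.99 at 0.08 mg/m3, with replicates 1 and 2 of 0.08 mg/m3 the lowest. It differed by 0.21 with the line position as a covariate, and the list median was then 0.12. Of 30 proteasome subunits 3 were called higher, Psmc1 (0.51 ± 0.12), Psmd14 (0.49 ± 0.12) and Psmd12 (0.35 ± 0.09), and 0 lower. Of the genes that answer unfolded protein and translational stress 2 of 29 were higher, the chaperone Dnajc3 (0.84 ± 0.21) and Atf3, with the stress regulators Ddit3 at 0.45 ± 0.18 (adjusted p = 0.0999) and Atf4 at 0.09 ± 0.07 (adjusted p = 0.349). In cholesterol synthesis Cyp51 (9.35, 9.92, 9.75, 9.77 and 9.85 at 0.15 mg/m3 and 8.57, 8.86, 9.34, 8.98 and 9.08 at 0.08 mg/m3, 0.76 ± 0.15), Sc5d (0.60 ± 0.15) and Hsd17b7 (0.46 ± 0.12) rose and the regulator Srebf2 fell (-0.43 ± 0.11), of 18 measured. Oxidative phosphorylation had 3 of 38 lower (Uqcrc1 -0.72 ± 0.15, Ndufv1 -0.60 ± 0.16, Ndufs7 -0.58 ± 0.14) and 0 higher, with a median of 0.01. That is 7.89%, near the share of all genes. At an unadjusted limma p under 0.05, 8 were higher and 11 lower, beside 2665 and 2835 of all 13438 genes. Of 23 hypoxia targets Ak4 was the 1 called (0.62 ± 0.15), which is 4.35%, below the share of all genes. The 1 called was Ldha of 16 glycolysis genes (0.39 ± 0.09), and of 17 histone demethylases, DNA methyltransferases and their partners Uhrf1. These are 6.25% and 5.88%, near the share of all genes. Of 14 p53 targets Gdf15 and Phlda3 (-0.77 ± 0.18) were called lower and 0 higher (14.3%, beside 6.78% of all genes).

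The same contrast after 4 weeks rested on 10 other animals and shared no array with the comparison at 1 week. There 2077 of 13438 genes (15.5%) were called, 1145 higher and 932 lower. Of the 377 genes called higher at 1 week 184 were also called higher at 4 weeks (48.8% of the 1-week and 16.1% of the 4-week calls), of the 534 called lower 181 were also called lower (33.9% of the 1-week and 19.4% of the 4-week calls). In opposite directions 0 were called. Across genes, which are not independent replicates, the differences at the 2 times correlated at r = 0.491. At 4 weeks Retnla differed by 2.65 ± 0.18, Saa3 by 2.95 ± 0.26, Muc5b by 1.39 ± 0.15 and Melk by 1.28 ± 0.10. At 1 week those differences were 2.69 ± 0.47 for Retnla, 2.32 ± 0.41 for Saa3, 1.11 ± 0.26 for Muc5b and 1.88 ± 0.42 for Melk. Mitosis genes had 30 of 37 called higher at 4 weeks with a median of 0.63, against 19 and 0.93 at 1 week. Smooth muscle genes had 10 of 11 lower at 4 weeks with a median of -0.92, against 4 and -0.45 at 1 week. Heart muscle genes had 6 of 13 lower at 4 weeks with a median of -1.03, against 0 and -0.065 at 1 week. The 8 skeletal muscle genes had a median of -1.70 at 4 weeks with 0 called, against -0.09 with 1 called lower at 1 week. Tested as an interaction, the difference between the times was called for 0 probe sets by limma (lowest adjusted p = 0.0704; 3347 with unadjusted p under 0.05), and 888 were called in one model of all 50 arrays. Timp1 (0.30 ± 0.12 at 4 weeks, adjusted p = 0.118), Il1r2 (0.42 ± 0.20, adjusted p = 0.172) and Gdf15 (-0.15 ± 0.11, adjusted p = 0.362) were called at 1 week and not at 4 weeks, and Ptges (1.96 ± 0.21, adjusted p = 0.00106) the other way round. For Gdf15 and Ptges the difference between times, 1 week minus 4 weeks, was -1.49 and -1.76 and passed in the model of all 50 arrays (adjusted p = 0.0106 and 0.00583) but not in that of the 20 arrays (adjusted p = 0.135 and 0.101).

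**Figure D5:**
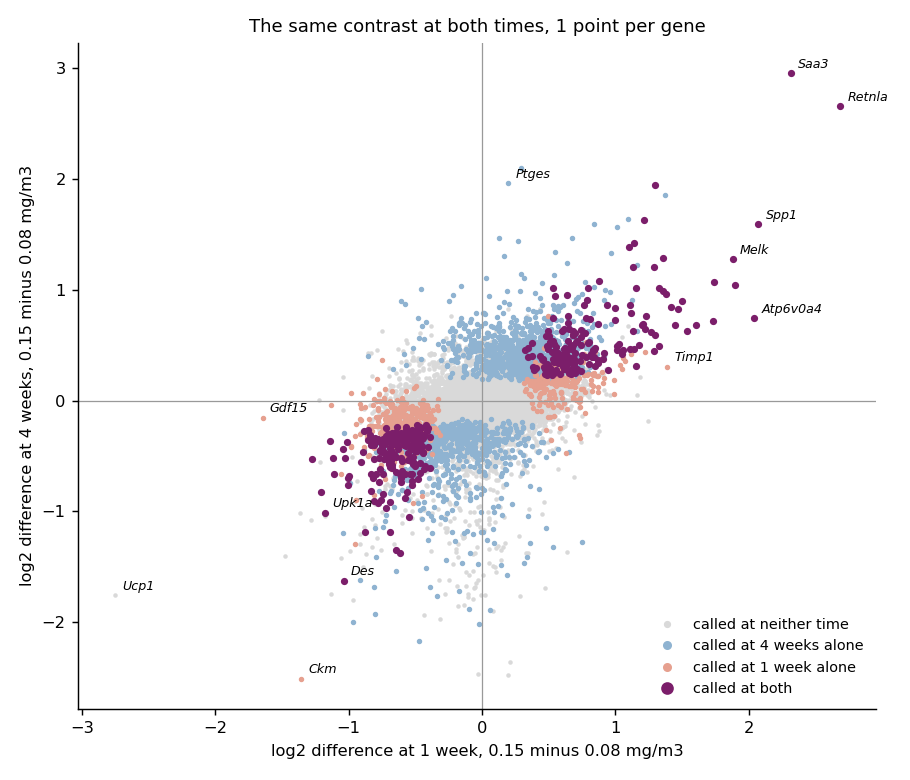
Log2 difference of 0.15 minus 0.08 mg/m3 for each of 13438 genes at 1 week (horizontal) and 4 weeks (vertical), coloured by the times at which the gene was called. The genes called at both times lie in the upper right (184) and lower left (181), Retnla and Saa3 are farthest to the upper right, and Gdf15 lies far left at 1 week and near 0 at 4 weeks.

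The genes that answered the highest concentration were then read in the comparison of 0.15 with 0.08 mg/m3, as a description without a test. Of the 1825 genes called higher at 0.60 against 0 mg/m3 after 4 weeks, in other animals, 175 were called higher (9.59%) and 59 lower (3.23%) at 0.15 against 0.08 mg/m3 at 1 week, and the median difference was 0.18 beside -0.02 over all genes. Of the 1569 called lower there 10 were called higher (0.637%) and 127 lower (8.09%), with a median of -0.12. Of all 13438 genes 2.81% were called higher and 3.97% lower at 0.15 against 0.08 mg/m3. The leaders of the response to 0.60 mg/m3 at 4 weeks differed in how far they had moved. Besides Retnla, Saa3, Spp1 and Slc26a4, none of the 10 largest rises there was called: Mmp12, Ptges and Lilrb4 (0.55 ± 0.28, adjusted p = 0.169), an inhibitory receptor of myeloid cells, had adjusted p values of 0.101 or more. Those of Ccl2, Lcn2 and Ccl7 lay between 0.0514 and 0.0549. Of the 10 largest falls there Upk1a and Scin, an actin-severing protein gene (9.19, 8.65, 8.76, 8.85 and 9.0 at 0.15 mg/m3 and 9.46, 9.66, 9.20, 9.45 and 9.41 at 0.08 mg/m3, -0.55 ± 0.12), were called lower. Gsta3, a glutathione transferase, had -0.26 ± 0.16 (adjusted p = 0.264), and Acot1, an acyl-CoA thioesterase, -0.74 ± 0.24 (adjusted p = 0.0635). Cyp2a3, a P450 of the airway, had -0.45 ± 0.14 (adjusted p = 0.0644), and Pla2g2d, a phospholipase, had -0.28 ± 0.14 (adjusted p = 0.168). With genes called at 0.60 against 0 mg/m3 at 1 week, whose controls also fix the line described above, the medians were 0.33 for 4416 higher genes and -0.35 for 4370 lower genes, and 0.09 and -0.04 with the line position as a covariate. Together these were 8786 of all 13438 genes, beside 3394 called at 0.60 against 0 mg/m3 at 4 weeks.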

How the data were processed

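Lung RNA was measured on rat 3' expression arrays, 1 animal per array. The deposited values are log2 intensities from RMA in Partek, per the submitters' processing notes and the labels; software versions and which arrays were normalised together are unstated there. Of 31042 probe sets, 19063 had 1 gene symbol in the platform annotation and were tested, 572 had several and 11407 none. A gene is its probe set with the highest mean over the 50 arrays; all 50 columns were assigned to samples by name, with 0 columns unused. No depth applies to arrays, and their number limits the precision.

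The 10 arrays were fitted alone with limma 3.58.1 (R 4.3.3: lmFit, eBayes), with Benjamini-Hochberg adjustment over all 19063 probe sets and a call at an adjusted p under 0.05; adjusted p values in the text come from this fit or, where stated, from the same fit at 4 weeks or between times. Array positions were compared by exact permutation. The script was tested on simulated data. Nothing in the labels ties replicate numbers to shared litters or days, and same-numbered arrays correlated between -0.339 and 0.342 (1 of 5 above 0.1), so the numbers were not used as pairs.

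Named genes were the 12 largest rises and falls without overlap, the 6 largest rises and falls also called with the spread axis as a covariate and without replicate 1 of 0.08 mg/m3, up to 4 members of each list with the largest change, the 6 most variable genes at 0.08 mg/m3 and the 10 largest rises and falls at 0.60 against 0 mg/m3 at 4 weeks. The adjusted form of the second part left 0 genes, so an unadjusted p was used there, which left 601. Further list members, genes that differed between times (no gene was called there) and the line position were chosen after values were seen. The members and lists were chosen with earlier results of these data known. Promoters are the 250 bases before each start in RefSeq (GRCr8).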

Additional observations from a re-analysis of the deposited data

Results flagged for a closer look

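In a group of 5 arrays, a sample was picked out when its gap to the nearest other array was more than 0.71 of the group's range; chance picks out about 1 in 20 groups, and 9 of the 100 looked at were. Replicate 1 of 0.15 mg/m3 lay apart, below the other 4, in Retnla (10.363, next 12.845), Pole2 (5.4355, next 6.2347), Rrm1 (7.0951, next 7.6542), Atp6v0a4 (3.6173, next 6.2251) and Melk (5.36, next 7.1305), all log2 intensities. The same array was low in the mean of the DNA replication list (-0.24447, next 0.29619) and of the acute-phase and secreted defence list (-0.21224, next 0.33887), both relative to the mean of the 10 arrays. Replicate 4 of 0.15 mg/m3 lay apart on the spread axis (12.685, next -4.3279) and on the line position (0.34324, next 0.2181), in the direction of the unexposed arrays of 1 week.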

How the results depend on the processing

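The count of called probe sets, 1124 with the 10 arrays fitted alone, was 7771 in one model of all 50 arrays, 7663 with array weights, 2096 without the dimmest 25% of probe sets and 616 with a minimum change of 1.5-fold. It was 5349 at an adjusted p under 0.10 and 6997 at an unadjusted p under 0.05, both chosen after seeing the data. It was 0 with the spread axis as a covariate (2164 with an unadjusted p under 0.05), and, chosen after seeing the data, 0 with the line position as a covariate and 0 without replicates 1 and 2 of 0.08 mg/m3 together. Leaving out 1 array gave 0 to 6424. With the replicate block it was 1038, of which 57.61% were higher, beside 43.15% of the 1124, and after quantile normalization 1436, of which 38.09% were higher; centring gave 1329 and trended robust variances 1276. Counted as genes, 911 became 1525 when 1 probe set per gene was tested. At 4 weeks 2553 probe sets became 1192 to 4197 over the omissions. The difference between times, 0 in the fit of 20 arrays, was 888 in one model of all 50 arrays and 0 to 2 over the omissions, with 2 without replicate 1 of 0.08 mg/m3. The spread axis difference of -26.7 ranged from -34.5225 to -19.7666. With the line position as a covariate the medians of genes higher and lower at 0.60 mg/m3 became 0.0724 and -0.0126 for the 4-week response and 0.0866 and -0.0413 for the 1-week response. The causes of these shifts were not tested. Of 580 values of the 29 leading genes over 20 alternatives, 258 stayed past the threshold, 322 did not and 0 changed direction. A covariate from RNA-quality control probe sets was not run, since the table used here gives no such values.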
